A study of Mus musculus with 2 samples.

Results

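The suppressors of cytokine signalling form a family of 8 genes in the mouse, Cish and Socs1 to Socs7. They were taken here as every gene probe whose name on the array was one of these 8 symbols. This gave 14 probes for 8 of the 19725 named genes on the array, and all 8 genes were among the 15609 that gave a signal well above background on at least 1 array. The study compared granulocytes with monocytes, both sorted from mouse bone marrow; the mice were wild-type males of the strain C57BL/6. Each cell type was hybridised once, on a one-colour Agilent array carrying Cy3-labelled cRNA made from 0.5 µg of total RNA. How the sort was gated and how many mice went into each sample are not stated in the sources used here. With 1 array per cell type there is no replicate check of any difference, no test was made, and precision is limited by the number of arrays.

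Cytokines bind receptors that carry Janus kinases (JAKs), and the activated kinases phosphorylate STAT transcription factors. Several SOCS genes are themselves STAT targets, so that their proteins feed back on the receptor that induced them. Every SOCS protein has a central SH2 domain, which binds phosphorylated tyrosines, and a C-terminal SOCS box, which recruits elongins B and C and cullin-5 into a ubiquitin ligase. The proteins of Cish, Socs1, Socs2 and Socs3 have short N-terminal regions, while those of Socs4, Socs5, Socs6 and Socs7 have long ones. In granulocytes SOCS3 is best known as the brake on the receptor for G-CSF, the growth factor that drives their production.

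The values turn on what each probe reads, so the first 30 of the 60 bases of the probe that represented each gene are shown 5′ to 3′. No base is capitalised in these, since no part of a probe is singled out. No sequence is shown for Socs6. The positions are those of the array file, in the mouse build mm8. The Cish probe lay at chr9:107159966-107160025 on the plus strand, the Socs1 probe at chr16:10697436-10697495 on the minus strand, the Socs2 probe at chr10:94842120-94842179 on the minus strand and the Socs3 probe at chr11:117782256-117782315 on the minus strand. The Socs4 probe lay at chr14:46217422-46217481 on the plus strand, the Socs5 probe at chr17:87045486-87045545 on the plus strand and the Socs7 probe at chr11:97209512-97209571 on the plus strand. Each probe was printed as 1 spot per array.
Cish: actttagaaaacaagtgttagaacacaaga
Socs1: gagggtctctggcttcatttttctgctgtg
Socs2: aggtgtgaagatgtagctaggtattttaaa
Socs3: ccttcgaggctgtctgaagatgcttgaaaa
Socs4: agttgctgagtagctattcagtactagttg
Socs5: gtgtctgagaacgtcatccaaacctacttt
Socs7: aaatgaggctaccacaaaagaagaatctgg

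The second set of sequences comes from the promoters, because Cish, Socs1 and Socs3 are known as feedback genes of STAT factors. RefSeq promoters of the assembly GRCm38.p6, from 250 bases before to 50 bases after the start site, were matched for 4 of the 8 genes, Cish, Socs1, Socs3 and Socs4, and not for Socs2, Socs5, Socs6 and Socs7. They were searched on both strands for TTCNNNGAA, the letters that most STAT dimers bind, which read the same on both strands. Each line below is a 30-base window in the direction of transcription, with the matches in capitals. The Cish window lies at chr9:107296654-107296683 on the plus strand and the Socs3 window at chr11:117969501-117969530 on the minus strand.
Cish: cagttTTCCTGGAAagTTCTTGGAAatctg
Socs3: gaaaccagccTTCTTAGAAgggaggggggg

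The Cish promoter held 2 matches of TTCNNNGAA, which began at positions 1 and 12, counting the start site as position 1. TTCNNNGAA occurred at least once in 8.30% of the 32851 mouse promoters and 2 or more times in 0.457% of them. The Socs3 promoter held 1 match of it, 154 bases before the start site. The Socs1 and Socs4 windows held none. These matches describe the letters in the windows only.

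The 8 genes lay on both sides of the comparison. Cish was 8.88-fold higher in granulocytes, Socs1 and Socs3 were 2.11-fold and 2.12-fold higher there, Socs2 and Socs4 lay within 2-fold, and Socs5, Socs6 and Socs7 were 3.58-fold, 4.07-fold and 3.23-fold higher in monocytes. Signals are the scanner's processed intensities with its own error estimate, which covers the measurement of the spot and not the spread between samples. Differences are granulocyte minus monocyte on a log2 scale, after each array was scaled to the 75th percentile of its signals, 339.4 for granulocytes and 620.9 for monocytes. This scaling moved every difference up by 0.87, which is why a gene can have the lower signal on the granulocyte array and a positive difference. In sorted bulk samples, fewer cells that express a gene and less of its RNA per cell cannot be told apart.

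**Figure D1:**
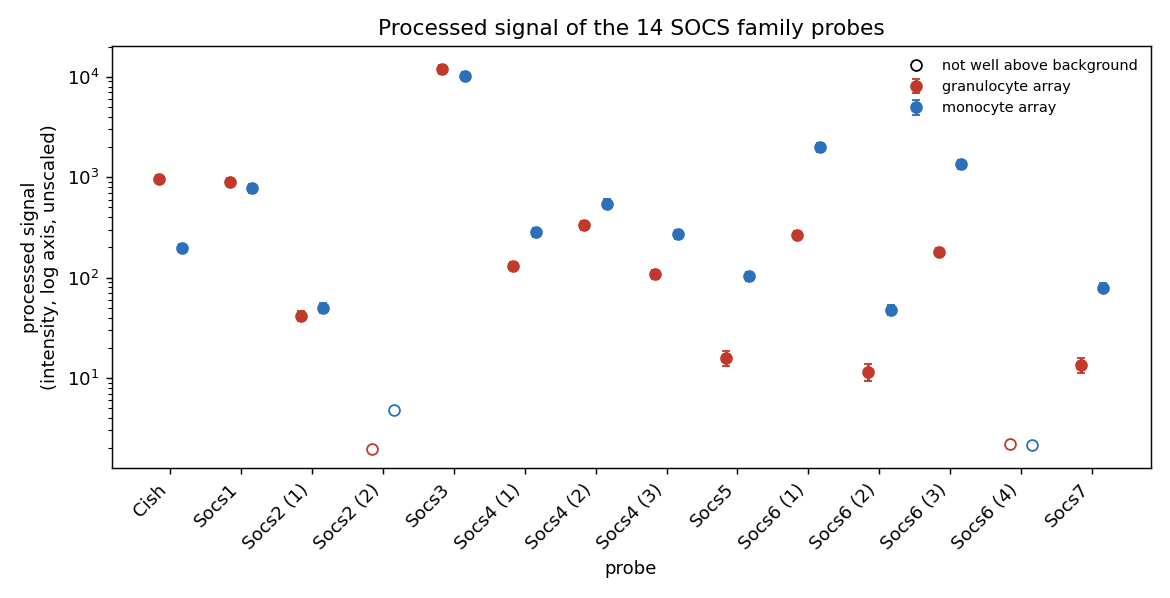
Processed signal (unscaled intensity, log axis) of the 14 SOCS family probes on the granulocyte array (red, left of each pair) and the monocyte array (blue), with the scanner's error as bars; open circles are not well above background. The Cish probe reads 963 in granulocytes against 198 in monocytes, while all 3 measured Socs6 probes read higher on the monocyte array.

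Cish encodes CIS, a feedback inhibitor induced through STAT5 by cytokines such as prolactin, growth hormone, erythropoietin and interleukin-3. Its probe gave 963 ± 96.3 in granulocytes against 198 ± 20.0 in monocytes (scanner error). The granulocyte signal was the higher both before and after scaling, with a difference of 3.15 ± 0.20 scaled and 2.28 unscaled. Among the 14183 genes measured on both arrays, 2.86% had a higher difference than Cish. It was the only one of the 8 genes at least 4-fold higher in granulocytes.

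Socs1 encodes an inhibitor that blocks JAK kinase activity directly and restrains responses to interferon gamma. Its signal was 904 ± 90.4 in granulocytes against 782 ± 78.2 in monocytes. The unscaled signals were close, and the scaled difference was 1.08 ± 0.20, with 25.9% of genes higher. Socs3, which shares the kinase inhibitory region of SOCS1 and binds gp130 and the G-CSF receptor, read 11909 ± 1191 in granulocytes against 10280 ± 1028 in monocytes. The scaled difference of Socs3 was likewise 1.08 ± 0.20, with 25.8% of genes higher. Without scaling, Socs1 and Socs3 each had a difference of 0.21, so by these probes their 2-fold calls rest on the scaling. Their unscaled differences kept the same sign but were close to the scanner error of 0.20.

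A probe outside the rule, named on the array by a transcript cluster rather than a symbol, is described in the file as mouse Socs3. It lay at chr11:117783434-117783493 in mm8, 1178 bases from the Socs3 probe. It gave 3466 ± 347 in granulocytes against 4109 ± 411 in monocytes, a scaled difference of 0.63 ± 0.20. By this probe Socs3 was again higher in granulocytes after scaling, by less than 2-fold, and the order of its unscaled signals was the opposite of that of the named probe.

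Socs2, a regulator of growth hormone signalling, had a dim probe that read 41.5 ± 4.64 in granulocytes against 50.3 ± 5.46 in monocytes. Its difference was 0.59 ± 0.22 scaled, and -0.28 with no scaling, so its direction depended on the scaling. A second Socs2 probe, 24319 bases away, was not well above background on either array and gives no difference.

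Socs4, whose protein has been reported to act on the epidermal growth factor receptor, was read by 3 probes. The representing probe gave 333 ± 33.3 in granulocytes against 546 ± 54.7 in monocytes, a difference of 0.16 ± 0.20. A second probe gave 131 ± 13.3 in granulocytes against 283 ± 28.4 in monocytes, a difference of -0.24 ± 0.21. The remaining one gave 109 ± 11.1 in granulocytes against 269 ± 27.0 in monocytes, a difference of -0.44 ± 0.21. All 3 were brighter on the monocyte array before scaling, and after it the representing probe and the other probes fell on opposite sides of 0, so no direction is given for Socs4.

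Socs5, reported to act on the interleukin-4 and epidermal growth factor receptors, read 15.9 ± 2.69 in granulocytes against 104 ± 10.6 in monocytes. Socs7, reported to bind insulin receptor substrate proteins, read 13.5 ± 2.36 in granulocytes against 79.6 ± 8.20 in monocytes. Both genes were higher in monocytes, with differences of -1.84 ± 0.29 for Socs5 and -1.69 ± 0.29 for Socs7. Of all measured genes, 11.0% had a lower difference than Socs5 and 12.4% a lower one than Socs7. The granulocyte signals of both were dim, and with normexp background correction, which adds an offset of 50, the differences were -0.26 for Socs5 and -0.12 for Socs7.

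Socs6, reported to bind the receptor tyrosine kinases KIT and FLT3 and the insulin receptor, was the only family gene at least 4-fold higher in monocytes. Its representing probe, the brightest, gave 267 ± 26.8 in granulocytes against 1993 ± 199 in monocytes, a difference of -2.03 ± 0.20. A second probe, 60 bases away, gave 181 ± 18.2 in granulocytes against 1355 ± 135 in monocytes, again a difference of -2.03 ± 0.20. Both probes gave the same difference. Another probe, 1669 bases away, was dimmer, with 11.6 ± 2.32 in granulocytes against 47.9 ± 5.20 in monocytes, and its difference was -1.18 ± 0.33. The fourth, 107787 bases away, was not well above background on either array. All 3 measured probes were higher in monocytes, but the mean over them was -1.75 and normexp correction gave -1.86, both short of 4-fold.

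**Figure D2:**
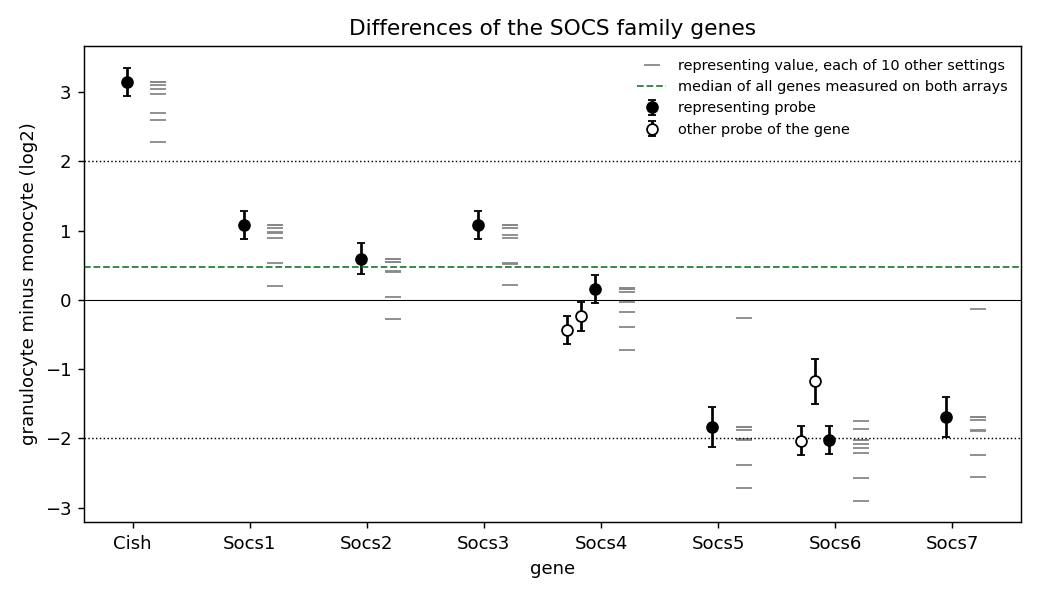
Difference granulocyte minus monocyte (log2) of each measured SOCS probe, with the scanner's error as bars (filled, representing probe; open, other probes); grey ticks give the representing value under the 10 other settings, dotted lines mark 4-fold and the dashed line the all-gene median of 0.47. Cish stands above the upper dotted line in every setting, Socs5, Socs6 and Socs7 stay below 0 in every setting, and the ticks of Socs2 and Socs4 cross 0.

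At 4-fold, 1 of the 8 genes (12.5%) was higher in granulocytes, beside 8.54% of the 15609 genes, and 1 (12.5%) was higher in monocytes, beside 10.4%. With 8 genes a single gene is the smallest count above 0, and both shares lie near the background. At 2-fold, 3 genes (37.5%) were higher in granulocytes, beside 29.1%, and 3 (37.5%) in monocytes, beside 20.9%. These counts depend on the processing. Socs1 and Socs3 were short of 2-fold with no scaling, and with normexp correction, at 0.96 and 0.94. They were also short of it with spike-in scaling (0.53 and 0.54), quantile normalisation (0.98 and 0.52) and the authors' value table (0.90 and 0.90). Socs5 and Socs7 were also short of it with normexp correction. Socs6, at 4.07-fold, was just past 4-fold and Socs5, at 3.58-fold, just short of it. The median difference of the family was 0.37 and that of the 14183 measured genes was 0.47, with 4 family genes above 0.47 and 4 below. The all-gene median itself was -0.40 with no scaling. Taken relative to it, Cish stood at 2.68, Socs1 at 0.61, Socs3 at 0.61, Socs2 at 0.12, Socs4 at -0.31, Socs7 at -2.16, Socs5 at -2.31 and Socs6 at -2.50.

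**Figure D3:**
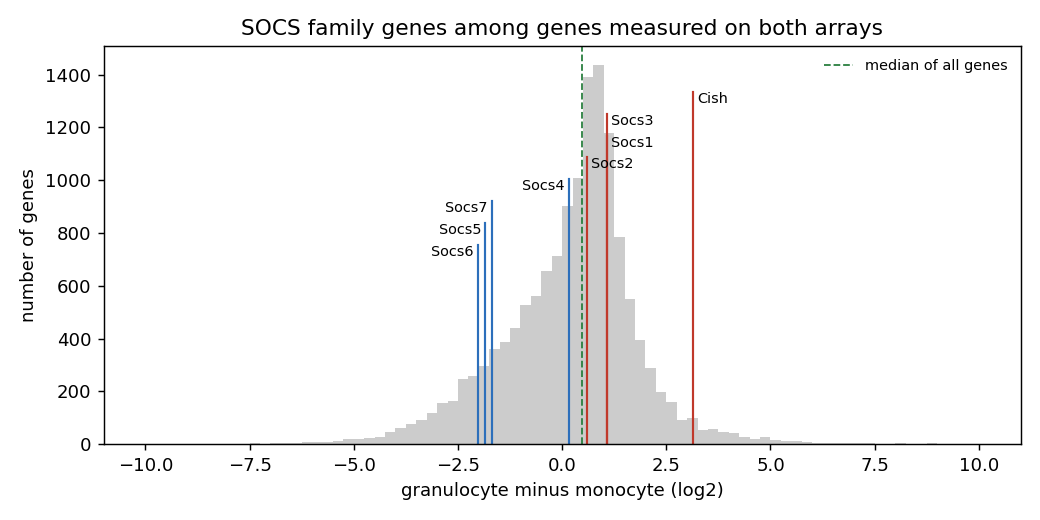
Number of genes by difference granulocyte minus monocyte (log2, bins 0.25 wide) for the 14183 genes measured on both arrays (grey). Lines mark the SOCS genes, coloured by value: red above the all-gene median (the 4 short genes) and blue below it (the 4 long ones). Line heights carry no value and the dashed line is the median of all genes. The red lines lie between 0.59 and 3.15 and the blue lines between -2.03 and 0.16.

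The differences can also be listed by N-terminal class, with 4 genes in each class and no test of the split. The 4 genes with short N-terminal regions had differences between 0.59 for Socs2 and 3.15 for Cish, with a median of 1.08. The 4 with long ones lay between -2.03 for Socs6 and 0.16 for Socs4, with a median of -1.76. The groups did not overlap, but the gap between Socs2 and Socs4 was 0.44 ± 0.30, little more than its scanner error. The medians were 2.85 apart, and 1.14 apart with normexp correction. The median of the long class lies between the values of Socs5 and Socs7, both dim in granulocytes.

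A constant for an array cancels when 1 gene's difference is taken from another's, so these comparisons do not depend on a choice of scaling constant. The difference of Cish exceeded that of Socs1 by 2.07 ± 0.29 and that of Socs3 by 2.07 ± 0.29. It exceeded that of Socs6 by 5.18, so the Cish to Socs6 ratio was 36.2-fold higher in granulocytes. Socs3 exceeded Socs6 by 3.11, and Socs6 fell below Socs4 by 2.18. These comparisons use the representing probes, and they do depend on that choice. The other Socs4 probes stood at -0.24 and -0.44, nearer to Socs6. The differences of Socs5 and Socs7 lay 0.15 apart against an error of 0.41, and those of Socs5 and Socs6 0.19 apart against 0.35, so neither pair is ordered.

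The other genes of the pathway were taken as 8 lists with 125 genes, of which 114 were above background on at least 1 array. Of these, 11 (9.65%) were at least 4-fold higher in granulocytes, beside 8.54% of all genes, and 9 (7.89%) in monocytes, beside 10.4%. Both shares are near the background, and the median of the 114 was 0.67 beside 0.47 for all measured genes.

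Of 34 type I and II cytokine receptor genes, 31 were above background, and their median was 0.10; 2 were past 4-fold in granulocytes and 3 past it in monocytes. Csf3r, the G-CSF receptor that SOCS3 restrains, gave 27058 ± 2706 in granulocytes against 4528 ± 453 in monocytes, a difference of 3.45. Il6st encodes gp130, the shared receptor chain of interleukin-6 to which SOCS3 also binds. It read 12.7 ± 2.3 in granulocytes against 1964 ± 197 in monocytes, a difference of -6.40 by its single probe, and -4.12 with normexp correction. In all 10 alternative settings Csf3r stood at 2.58 or above and Il6st at -4.12 or below. Averaging over probes and the filters on dim probes could not change either value, since each gene had a single probe above background on both arrays. Socs3 itself differed by 2.12-fold as reported, a difference of 1.08, but by 0.21 with no scaling. The Socs3 probe outside the rule gave 0.63. Prlr, the prolactin receptor, stood at 2.19 and was below 4-fold in 3 of 10 alternative settings, the lowest being 1.32 with no scaling, while Il2rb, a chain of the interleukin-2 and interleukin-15 receptors, stood at -4.13 and Il10ra, the ligand-binding chain for interleukin-10, at -2.14.

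Of 6 receptor tyrosine kinases reported to bind SOCS proteins, 1 was past 4-fold in granulocytes, 0 were past it in monocytes, and the median was 1.33. Igf1r, the insulin-like growth factor receptor, read 7158 ± 716 in granulocytes against 806 ± 80.6 in monocytes. Its difference was 4.02, and its 4 probes ran from 3.63 to 4.40. Csf1r, which encodes the M-CSF receptor of the monocyte lineage, read 3610 ± 361 in granulocytes against 19510 ± 1951 in monocytes, a difference of -1.56.

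Among the 4 JAK genes, Jak1 alone passed 4-fold. It read 19318 ± 1932 in granulocytes against 8467 ± 847 in monocytes, a difference of 2.06, with 3 probes from 1.98 to 2.07. Jak1 was below 4-fold in 5 of 10 alternative settings, the lowest being 1.19 with no scaling. Jak2 stood at 0.72 and Jak3 at 0.71, each -0.16 with no scaling, so no direction is given for either. Tyk2, the JAK of the type I interferon and interleukin-12 receptors, read 760 ± 76.0 in granulocytes against 4116 ± 412 in monocytes, and stood at -1.57.

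Of 7 STAT genes, 1 was past 4-fold in granulocytes, 0 were past it in monocytes, and the median was 1.26. Stat4, the STAT of interleukin-12, read 2695 ± 270 in granulocytes against 665 ± 66.5 in monocytes, a difference of 2.89. Stat3, the main STAT of G-CSF and interleukin-6, stood at 1.94. The STAT5 genes, whose proteins induce Cish, went opposite ways. Stat5b read 8618 ± 862 in granulocytes against 6573 ± 657 in monocytes, a difference of 1.26. Stat5a read 800 ± 80.0 in granulocytes against 2322 ± 232 in monocytes, a difference of -0.67.

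**Figure D4:**
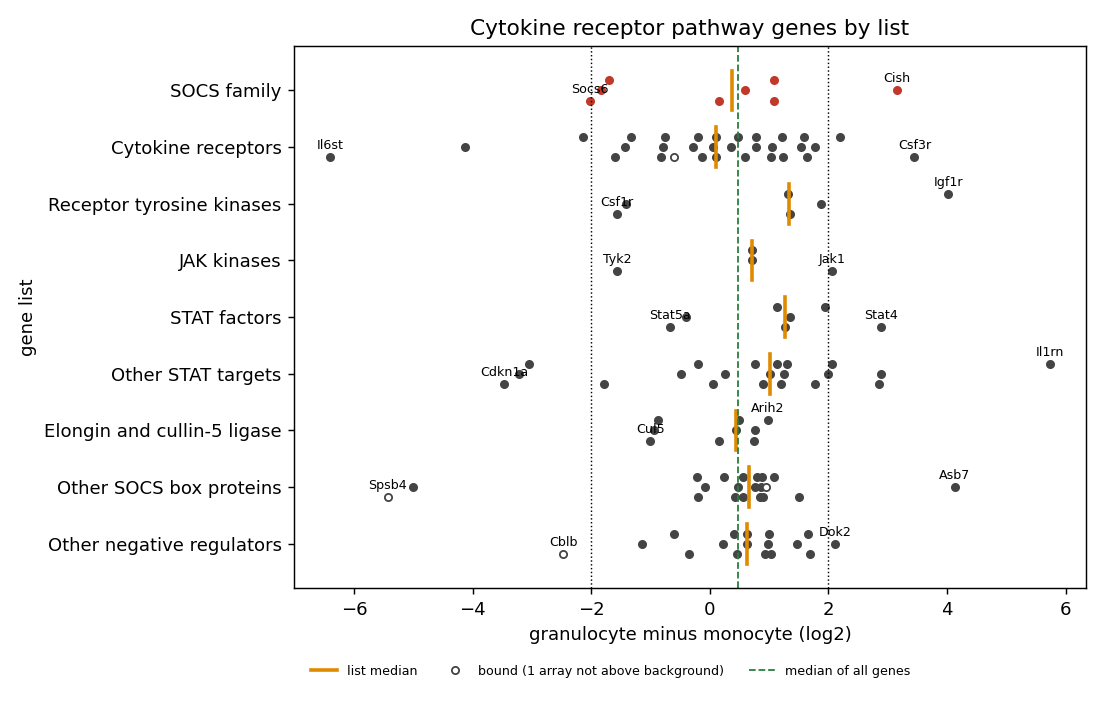
Difference granulocyte minus monocyte (log2) of the SOCS family (red) and of each gene of the 8 pathway lists (dark grey; open circles are bounds), with list medians in orange, the all-gene median of 0.47 dashed and 4-fold dotted; the extreme gene on either side of each list is labelled. Il6st at -6.40 and Il1rn at 5.73 mark the ends, and the ligase partners lie between -1.01 and 0.98.

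Of 21 other genes known as STAT targets, 4 were past 4-fold in granulocytes, 3 were past it in monocytes, and the median was 1.02. Il1rn, the interleukin-1 receptor antagonist, read 8362 ± 836 in granulocytes against 288 ± 28.9 in monocytes, a difference of 5.73. Bcl6, a transcriptional repressor, stood at 2.89, and the cytokine gene Osm, which like Cish is a STAT5 target, at 2.86, or 1.99 with no scaling. Higher in monocytes were Cdkn1a, the cell cycle inhibitor p21, at -3.46 (-2.54 with normexp correction), and the growth regulator Myc at -3.21 (-2.58 with normexp correction). The 3 Myc probes ran from -3.50 to -1.68, with a mean of -2.80. The B-lineage cytokine receptor gene Tnfrsf13b was also higher in monocytes, at -3.05, or -1.96, short of 4-fold, over the mean of its probes. The remaining gene past 4-fold in granulocytes was Cebpd, a transcription factor of the myeloid lineage, at 2.07, named after its value was seen and below 4-fold in 5 of 10 alternative settings, down to 1.19.

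The SOCS box works only with its ligase partners, and of these 9 genes 0 were 4-fold apart in either direction, with a median of 0.44. Elob and Eloc, which encode elongins B and C, stood at 0.75 and 0.76, and at -0.13 and -0.12 with no scaling. Cul5, the cullin of the SOCS ligase, read 576 ± 57.6 in granulocytes against 2116 ± 212 in monocytes. It was higher in monocytes, at -1.01, with 5 probes from -1.22 to -0.83.

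Of 28 other SOCS box genes, 20 were above background, and their median was 0.66; 1 was past 4-fold in granulocytes and 2 were past it in monocytes. Asb7, a substrate receptor of the ankyrin repeat and SOCS box family, read 4552 ± 455 in granulocytes against 474 ± 47.4 in monocytes, a difference of 4.14 by this probe, though its 3 probes ran from 1.61 to 4.14 with a mean of 2.95. Neurl2 read 17.8 ± 2.6 in granulocytes against 1041 ± 104 in monocytes, 32.0-fold higher in monocytes, though with normexp correction of this dim signal the difference was -3.13. The other gene past 4-fold in monocytes was Spsb4, named after its value was seen. It was not well above background on the granulocyte array, and its bound was 43.1-fold higher in monocytes. With normexp correction it stood at -2.80. Among 17 other negative regulators, the adaptor gene Dok2 was past 4-fold in granulocytes, at 2.11, and the median was 0.63. Dok2 was below 4-fold in 5 of 10 alternative settings, down to 1.24, which left 0 of the list past 4-fold in granulocytes. In the other direction 1 gene passed, the ubiquitin ligase gene Cblb, also named after its value was seen. Its bound was 5.54-fold higher in monocytes, and it was likewise not well above background in granulocytes. After normexp correction its difference was -0.44, short of 4-fold.

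Markers of the sorted cells followed the labels. All 14 neutrophil markers were higher in granulocytes, with a median difference of 3.96, and all 13 monocyte markers were higher in monocytes, with a median of -6.54. Unscaled signals summed over the monocyte markers came to 29775 in granulocytes against 500289 in monocytes. Those over the neutrophil markers came to 1600100 in granulocytes against 660971 in monocytes, so neutrophil transcripts were also bright on the monocyte array. S100a9, a calprotectin subunit, read 293515 in granulocytes against 257392 in monocytes, and Ltf, lactoferrin, read 231124 in granulocytes against 100092 in monocytes. Markers of other cells also moved between the arrays. Over the 6 of 7 NK cell markers above background on at least 1 array, the median was -2.04, with bounds for Prf1 and Eomes. Their signals summed to 94.3 in granulocytes against 1510 in monocytes, and Ncr1 was not above background on either array. The 6 plasmacytoid dendritic cell markers had a median of -2.45 and sums of 1901 in granulocytes against 17361 in monocytes, of which Bst2 gave 1508 in granulocytes against 14317 in monocytes. The 6 of 7 stem and progenitor markers above background on at least 1 array had a median of -1.27. Their signals summed to 735 in granulocytes against 3956 in monocytes, of which Cd34 gave 153 in granulocytes against 3183 in monocytes. Without Cd34 the other 5 summed to 582 in granulocytes against 773 in monocytes. Of the 6, 4 lay below 0, while Kit at 1.35 and Gata2 at 1.76 were higher in granulocytes. The 6 basophil and mast cell markers had a median of 1.55 and sums of 112474 in granulocytes against 6874 in monocytes, nearly all from Hdc, histidine decarboxylase. Without Hdc the other 5 summed to 1107 in granulocytes against 624 in monocytes. Medians were 1.55 for platelet, 1.57 for eosinophil, 0.96 for B cell, 0.56 for stromal and endothelial and -0.76 for T cell markers, and the 7 erythroid markers measured of 9 lay between 0.65 and 1.92. The B cell markers summed to 16402.2 in granulocytes against 34136.5 in monocytes. Their 2 brightest, Ighm at -0.24 and Cd79b at -0.28, lay below 0 and the other 6 above it. The part of such cells in the differences of the SOCS genes was not tested.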

How the data were processed

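Per the file headers, both arrays were scanned on 1 slide in 1 scan and read by Agilent Feature Extraction 10.5.1.1. The deposited files give for each of 45018 spots a background-subtracted intensity on a linear scale, its error, and flags. The authors' deposited value table is on a log2 scale and equals the log2 processed signal plus a constant, -0.24 on the granulocyte array and -0.92 on the other. How these constants were set is not stated in the sources used here.

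Of the 43379 gene spots, 143 on the granulocyte and 103 on the monocyte array carried an outlier flag and were dropped, and 0 were saturated. Signal was well above background for 63.9% of 41089 probes in granulocytes and 68.2% in monocytes. The value was log2 of the processed intensity minus its 75th percentile on that array, and spots of a probe were averaged. A gene was represented by the probe with the most arrays above background, ties going to the brightest. The median SD of repeated spots was 0.07 on each array. Over 5389 genes with several probes, the median SD between probes was 0.23. A gene above background on 1 array only has a bound, not a difference. On the other array the bound used the lowest signal called well above background there, or the gene's own signal if higher. Such bounds enter the counts at 4-fold and 2-fold and the list medians, and the all-gene median and percentiles use the 14183 genes measured on both arrays.

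Genes were named by these rules: all family members by every probe, up to 3 genes each way per pathway list with the largest measured difference past 4-fold, and a set of receptors, JAKs, STATs and ligase partners whatever their values. No gene was named for likeness of pattern, since 2 arrays give 1 difference. The members and lists were chosen with earlier results of these data known. Alternatives covered scaling, background, value table, probe choice, filter, flags, size and mean. The steps were tested on simulated data and run with Python 3.11.15, pandas 2.3.3, numpy 2.4.6, R 4.3.3 and limma 3.58.1. One promoter motif that was searched and 1 gene that the rule names are not reported here, though counts and medians include that gene.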

Additional observations from a re-analysis of the deposited data

How the results depend on the processing

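No paired analysis was possible because there was 1 array per cell type and the labels give no replicate numbers. Both filters on dim probes leave the family values as they are, since every representing probe was above background on both arrays. Of the settings that changed a value by any amount, Cish, Socs1, Socs3, Socs5 and Socs7 kept their direction in 7 of 7, Socs6 in 8 of 8, Socs2 in 6 of 7 and Socs4 in 4 of 8. Some of these changes were slight: Cish went from 3.151 to 3.148 with outlier spots kept. Several settings only shifted all genes by the same constant. With no scaling, Socs1 and Socs3 kept their direction by 0.21, close to their scanner error of 0.20. With no scaling, 3 family genes were at least 4-fold higher in monocytes, the family median was -0.50, and 6 pathway genes were past 4-fold in granulocytes and 17 in monocytes, against 11 and 9 as reported. Over all genes, 581 were then past 4-fold in granulocytes and 3013 in monocytes, against 1333 and 1623. Scaling to the spike-in controls gave 3 family genes in monocytes, a median of -0.17, and 7 pathway genes in granulocytes and 13 in monocytes, beside 766 and 2425 of all genes and an all-gene median of -0.076. Family genes past 4-fold in monocytes numbered 2 after quantile normalisation, 2 in the authors' table, 0 with probes of a gene averaged and 0 after normexp. Over all genes the counts in monocytes under these settings were 1862, 1856, 1454 and 895, in that order, against 1623 as reported. Normexp left 7 pathway genes in granulocytes and 8 in monocytes, beside 872 and 895 of all genes. Normexp adds an offset to every signal, which shrinks differences of dim probes. With scaling and background as reported, counts at 2-fold were 3 and 3 for the family. For the 114 pathway genes they were 39 in granulocytes and 18 in monocytes. Of all 15609 genes, 4538 (29.1%) and 3258 (20.9%) were past 2-fold. The mean over the family was 0.063.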
